A study of Mus musculus with 12 samples.

Results

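The 40 genes described here encode the extracellular side of Wnt signalling in the mouse: 19 Wnt ligands, 9 Frizzled receptors, 5 co-receptors (Lrp5, Lrp6, Ror1, Ror2 and Ryk), 4 R-spondins and 3 R-spondin receptors (Lgr4, Lgr5 and Lgr6). They were chosen by gene family, out of 21883 protein-coding genes, with earlier results of these data known. The Frizzled gene Fzd5 is not among them, so the family is not complete here, and its values are given separately below. Each gene was followed through a window made of its gene body plus 20 kb on each side, in mm10 coordinates. Acetylation of histone H3 at lysine 27 (H3K27ac), a mark of active promoters and enhancers, had been mapped by ChIP-seq in lysates of the whole cortex of mouse embryos at E15.5, and the deposited data are lists of peaks. There were 3 libraries from Prdm16 flox/flox embryos, labelled WT, whose Prdm16 alleles are floxed without Cre. The other 3 libraries came from Emx1Ires-Cre; Prdm16flox/flox embryos (cKO), which carry the same floxed alleles together with a Cre allele. Prdm16 codes for a zinc-finger transcription factor that acts on chromatin. Emx1 drives Cre in progenitors of the dorsal forebrain and their progeny, so ventrally born interneurons, vessels, microglia and meninges within such a lysate are outside the Cre lineage. A group with Cre and no floxed allele was not analysed here. The labels do not name the embryos or litters behind each replicate, and the tests therefore measure the spread between libraries, which may be technical.

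Wnt ligands are secreted lipid-modified proteins that bind Frizzled receptors at the cell surface. With the co-receptors Lrp5 or Lrp6 they stabilise beta-catenin, and with Ror1, Ror2 or Ryk they act through routes that do not need it. R-spondins bind Lgr4, Lgr5 or Lgr6 and prolong the life of Frizzleds on the surface by withdrawing the ligases Znrf3 and Rnf43. In the embryonic forebrain the cortical hem at the dorsal midline is a classical source of Wnt2b, Wnt3a and Wnt8b, while Wnt7a and Wnt7b are known from the cortex itself.

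Promoter sequence was at hand for 27 of the 40 genes (RefSeq, GRCm38.p6), and 4 promoters are shown because they contrast base composition with acetylation. Each run is the 250 bases before the listed start site, 5′ to 3′ on the strand of the gene, with every CpG in capitals. Wnt7a (chr6:91411354-91411603, minus strand) holds 34 CpG and Fzd1 (chr5:4758217-4758466, minus strand) 12, and both starts had an H3K27ac peak in all 6 libraries. Wnt3a (chr11:59290752-59291001, minus strand) holds 41 CpG and had no peak at its start in any library. Lgr6 (chr1:135105277-135105526, minus strand), the gene with the single called change among the 40, holds 16 CpG and had a start peak in 1 library.
Wnt7a: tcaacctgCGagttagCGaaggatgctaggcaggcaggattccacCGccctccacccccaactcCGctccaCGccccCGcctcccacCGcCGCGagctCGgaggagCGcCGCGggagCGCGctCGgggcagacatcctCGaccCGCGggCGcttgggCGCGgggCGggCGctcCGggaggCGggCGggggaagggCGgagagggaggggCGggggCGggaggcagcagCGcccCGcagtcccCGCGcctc
Fzd1: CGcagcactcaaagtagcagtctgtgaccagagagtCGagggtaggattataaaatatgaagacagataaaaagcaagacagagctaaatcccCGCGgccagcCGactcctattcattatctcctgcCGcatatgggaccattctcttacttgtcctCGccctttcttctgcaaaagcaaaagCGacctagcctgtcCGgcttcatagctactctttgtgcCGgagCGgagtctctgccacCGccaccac
Wnt3a: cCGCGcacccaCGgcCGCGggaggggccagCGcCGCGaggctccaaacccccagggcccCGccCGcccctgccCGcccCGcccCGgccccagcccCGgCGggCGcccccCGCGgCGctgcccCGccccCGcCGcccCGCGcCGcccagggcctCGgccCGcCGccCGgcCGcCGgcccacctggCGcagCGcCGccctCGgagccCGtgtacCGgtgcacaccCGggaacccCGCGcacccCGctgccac
Lgr6: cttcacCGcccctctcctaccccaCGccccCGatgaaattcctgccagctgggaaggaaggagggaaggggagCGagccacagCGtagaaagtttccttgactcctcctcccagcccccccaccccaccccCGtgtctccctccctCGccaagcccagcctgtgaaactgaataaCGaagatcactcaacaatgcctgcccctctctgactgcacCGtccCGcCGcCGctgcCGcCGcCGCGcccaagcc

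The 6 lists held 48168 to 75563 peaks covering 53.9 to 92.1 Mb, and the longest (WT replicate 2) and the shortest (WT replicate 3) both came from WT. Lengths under peaks were therefore scaled to the same list total in every library and are called scaled cover, in bp. Read depth is unknown, since peak lists hold no counts. Identifiers of the libraries divide the samples into batch A, with replicates 1 and 2 of each genotype, and batch B, with both replicates 3. At Prdm16 itself scaled cover ran from 76295 to 80929 bp in WT and from 94625 to 99982 bp in cKO, a log2 difference of 0.28 ± 0.11 (SE, limma adjusted p = 0.359). A peak list does not show the recombined exon, so this is no check of the labels. All 8 cortical markers reported, among them Emx1, Pax6 and Tbr1, carried cover in every library, with a summed scaled cover of 175595 to 223534 bp in WT and 192243 to 208137 bp in cKO. Windows of markers of other cells carried cover too. Peaks lay in the window in all 6 libraries at 4 of 6 ventral forebrain and interneuron markers (Dlx1, Dlx2, Lhx6 and Gad2) and at 3 of 5 vessel markers (Pecam1, Cdh5 and Pdgfrb). Their sums were 65813 to 87184 bp in WT and 81490 to 89634 bp in cKO for the former, and 10359 to 14604 bp and 10632 to 12580 bp for the latter. The windows of Dlx1 and Dlx2 overlap, so a peak lying in both is counted for each. The Pdgfrb window overlaps that of Csf1r, a microglial marker, so those values are not independent either. Pecam1 and Cdh5 had no start peak, as defined below, in any library, while Pdgfrb, Dlx1, Dlx2, Lhx6 and Gad2 had one in all 6. Nkx2-1, Tek and the choroid plexus marker Otx2 had no cover in any library.

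The first question was which of the 40 genes were acetylated in the cortex at all. A gene was counted as acetylated at its start when a peak lay within 1 kb of a listed start site, or of either gene end for the 13 genes without a listed start. By that count 20 of the 40 genes (50%) had a start peak in all 6 libraries, 12 (30%) in none and 8 in 1 to 5, against 58.0% and 36.3% of all protein-coding genes in all and in none. Among the 27 genes with a listed start, 11 (40.7%) had a peak in every library, beside 58.4% of the 17491 genes with one. Of the Wnt ligands 5 of 19 had a start peak in every library, beside 8 of 9 Frizzleds, 5 of 5 co-receptors, 1 of 4 R-spondins and 1 of 3 R-spondin receptors.

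**Figure D1:**
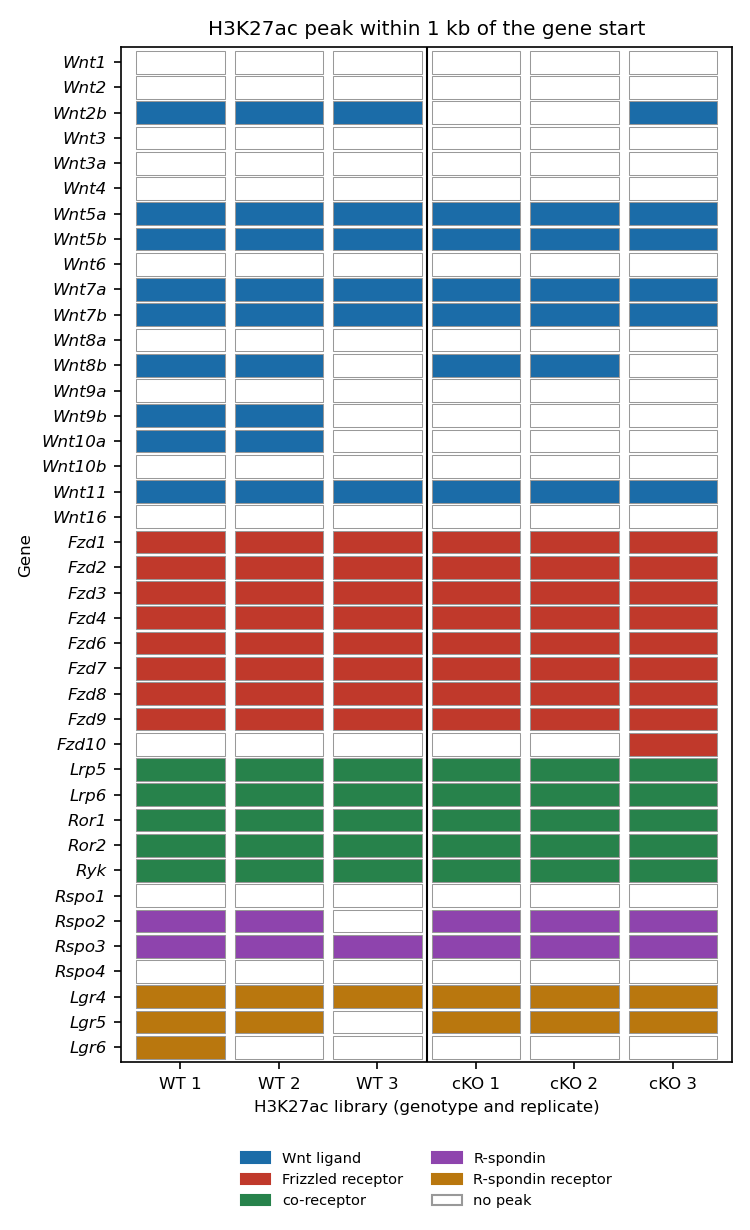
Presence of an H3K27ac peak within 1 kb of the gene start for each of the 40 genes (rows, coloured by role) in each of the 6 libraries (columns, WT left of the line and cKO right of it). Filled cells mark a peak and open cells none, and 20 rows are filled throughout while 12 are open throughout.

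The 5 ligand genes with a start peak in every library were Wnt5a, Wnt5b, Wnt7a, Wnt7b and Wnt11. The first of these signals mainly without beta-catenin, and Wnt7a and Wnt7b drive progenitor growth and brain vessel formation. At Wnt7a (chromosome 6, 91363981 to 91411353) scaled cover was 14648, 12675 and 15896 bp in WT replicates 1, 2 and 3 and 15657, 15147 and 16841 bp in the cKO replicates. Its start peak was stronger than 85.5% to 94.0% of the peaks in its list, ranked by the authors' -log10 p. At Wnt7b (chromosome 15, 85535437 to 85581821) the values were 14292, 12445 and 11197 bp in WT and 10102, 11188 and 11116 bp in cKO. At Wnt5b (chromosome 6, 119432531 to 119544824) they were 14003, 15826 and 14241 bp in WT and 14469, 13816 and 13454 bp in cKO. These were the 3 ligand windows with the longest cover, in both genotypes. Other genes overlap Wnt5b: 97.9% of the cover in its window lay in its own body, but 33.0% also lay in other genes. The windows of Wnt7a and Wnt7b held no other protein-coding gene. Per length of window the order was Wnt7a at 17.3%, Wnt7b at 13.6%, Wnt5a at 12.8% and Wnt5b at 9.39%, and the single libraries of Wnt7b and Wnt5a overlapped.

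The 10 ligand genes with no start peak in any library were Wnt1, Wnt2, Wnt3, Wnt3a, Wnt4, Wnt6, Wnt8a, Wnt9a, Wnt10b and Wnt16. For Wnt9a and Wnt2 this rests on the limit of 1 kb. A region 1001 bp from the Wnt9a start had a peak in 2 WT and 3 cKO libraries. Another, 1203 bp from the Wnt2 start, had a peak in 2 WT and 2 cKO libraries. Wnt1, which organises the midbrain-hindbrain border, had no peak over its gene body, and 75.2% of the cover in its window lay in neighbouring genes. Wnt8a, Wnt10b and Wnt16 had no cover over the gene body either. The cover of Wnt16 came from WT replicate 2 alone. Wnt3, in contrast, carried a single region at chromosome 11, 103807723 to 103810844, inside the gene 33548 bp from its start, in all 6 libraries, and all cover counted for it lay in the gene body. Of the 4 midbrain and hindbrain markers, En1 had cover in 1 library, En2 in 2, Pax2 in 5 and Gbx2 in 6, with sums of 967 to 2463 bp in WT and 883 to 2313 bp in cKO.

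The ligand genes tied to the cortical hem had 2.82% (Wnt2b), 3.62% (Wnt3a) and 3.86% (Wnt8b) of their windows covered. Of that cover, 5.41% lay in the gene body at Wnt2b, 37.5% at Wnt3a and 61.6% at Wnt8b. Wnt2b (chromosome 3, 104944805 to 104961709) had a start peak in the 3 WT libraries and in cKO replicate 3. Those peaks were weak, stronger than 4.2% to 24.8% of their lists. The scaled cover of Wnt2b was 1196, 2629 and 1993 bp in WT and 1031, 973 and 1818 bp in cKO, so the genotypes overlapped. Wnt8b (chromosome 19, 44493472 to 44514273) had a start peak in replicates 1 and 2 of both genotypes and in neither replicate 3. Its scaled cover was 2500, 4410 and 528 bp in WT and 4694, 1948 and 0 bp in cKO. Both batch B libraries were thus the lowest of their genotype at Wnt8b. Wnt3a (chromosome 11, 59248036 to 59290751) had 2648, 3058 and 2197 bp in WT and 4023, 2856 and 3177 bp in cKO, without a start peak. A region inside Wnt3a at chromosome 11, 59263663 to 59264836, was present in all 6 libraries. Markers of cortical hem and choroid plexus summed to 4047 to 5743 bp in WT and 3951 to 5465 bp in cKO, with cover in all 6 libraries at 3 of 6 (Lmx1a, Msx2 and Kl).

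The Frizzled genes stood at the other end. Frizzleds are seven-pass membrane receptors, and several are encoded by short genes with few exons. H3K27ac covered the whole gene body of Fzd2, Fzd8 and Fzd9 in every library, 91.0% to 100% of Fzd1 and 83.2% to 88.0% of Fzd7. The Fzd9 window (gene at chromosome 5, 135248938 to 135251047) was 35.0% covered, more than in 99.5% of protein-coding genes. Of that cover, 14.6% lay in the short Fzd9 body and 14.3% in the neighbouring gene Baz1b. Scaled cover of the Fzd9 window was 13276, 12071 and 16104 bp in WT and 14206, 16513 and 16259 bp in cKO. Fzd8 (chromosome 18, 9212856 to 9216201) had a single peak in each library, 6270 to 6879 bp long before scaling and stronger than 90.3% to 96.7% of its list. The scaled cover of Fzd8 was 6010, 5344 and 8560 bp in WT and 6258, 6669 and 7437 bp in cKO. Fzd2 (23.3%), Fzd7 (15.4%) and Fzd1 (13.7%) were also densely covered, while Fzd6 (1.16%) and Fzd10 (2.09%) were not. Fzd10 was the Frizzled without cover over its body, and its start had a peak in cKO replicate 3 alone.

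Over the window, the median share covered was 2.82% for the 19 ligand genes, 13.7% for the 9 Frizzleds, 8.32% for the 5 co-receptors, 0.623% for the 4 R-spondins and 1.30% for the 3 Lgr genes. The median was 3.64% over the 40 genes and 3.60% over all protein-coding genes. Some windows were shared: Wnt3 with Wnt9b, Wnt3a with Wnt9a, Wnt6 with Wnt10a and Wnt1 with Wnt10b overlap, so their values are not independent.

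**Figure D2:**
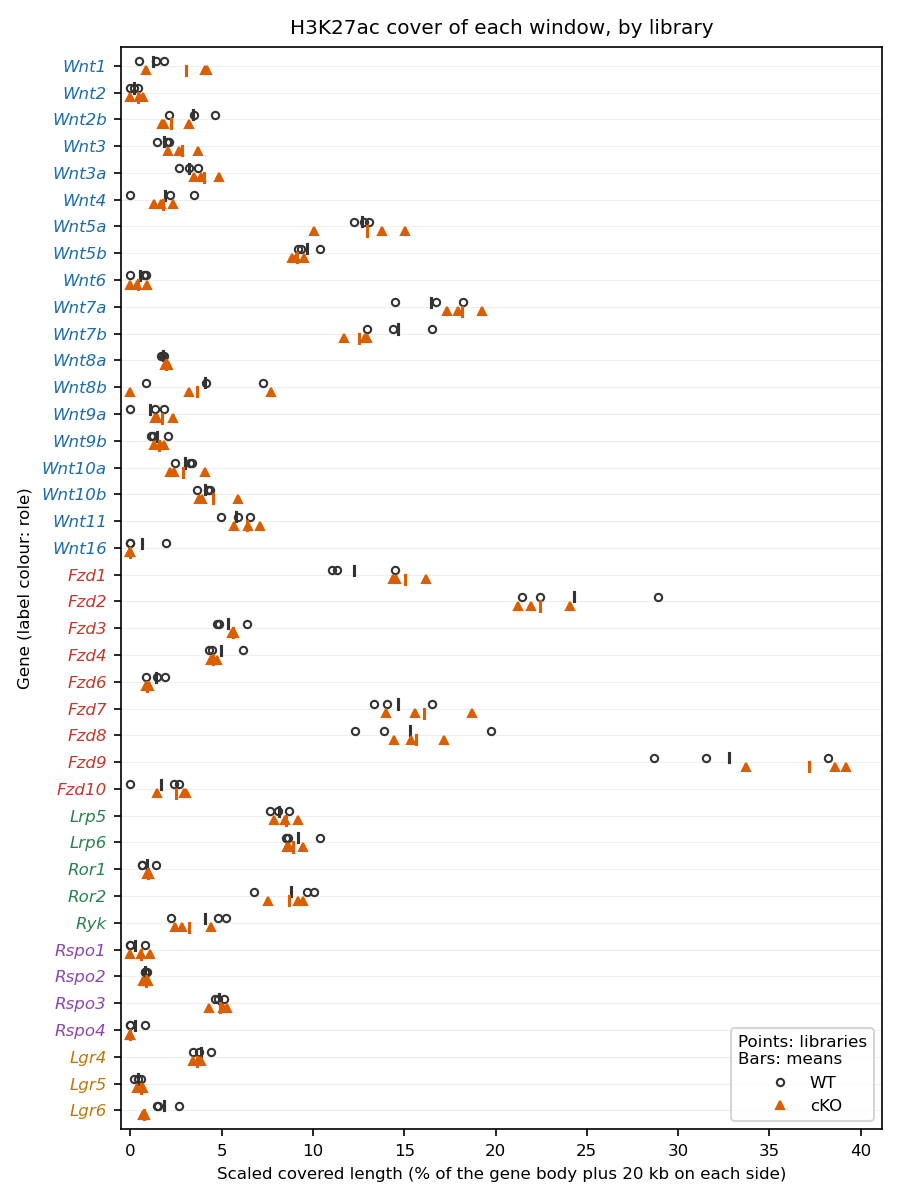
Scaled covered length as a percentage of the window (horizontal axis) for each of the 40 genes (rows, label colour by role), with circles for WT libraries, triangles for cKO libraries and bars for the means of 3. Fzd9 lies farthest right, at 35.0% over the 6 libraries, and most ligand genes lie near the left edge.

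All 5 co-receptor genes had a start peak in every library. Lrp5 and Lrp6 are the single-pass partners of Frizzled in the beta-catenin route, and Ror1, Ror2 and Ryk are receptors of the tyrosine kinase families. Ror2 (chromosome 13, 53109317 to 53286124) had the longest mean cover of the 40, with 21748, 20994 and 14616 bp in WT and 20436, 16326 and 19898 bp in cKO, spread over 14 to 21 peaks. Lrp6 (chromosome 6, 134446476 to 134566913) had 13637, 16695 and 13857 bp in WT and 13758, 13905 and 15163 bp in cKO. Lrp5 (chromosome 19, 3584825 to 3686585) had 12310, 10801 and 11458 bp in WT and 12012, 13027 and 11150 bp in cKO. At each of these 3 genes the genotypes overlapped. Ror1 was thinly covered, at 0.934% of a long window.

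Among the secreted R-spondins, Rspo3 (chromosome 10, 29453106 to 29535867) was the gene with a start peak in all 6 libraries. Its scaled cover was 5910, 5672 and 6314 bp in WT and 6509, 5260 and 6248 bp in cKO. Rspo2 (chromosome 15, 43020788 to 43171594) had 1479, 1728 and 1480 bp in WT and 1658, 1303 and 1874 bp in cKO, with a peak near a gene end in each library but WT replicate 3. Rspo1 (chromosome 4, 124986401 to 125009102) had a single region outside the gene, seen as 510 bp in WT replicate 2 and 677 and 369 bp in cKO replicates 1 and 2, and no cover in the other 3 libraries. Rspo4 had cover in WT replicate 2 alone. Among the receptors of R-spondins, Lgr4 had a start peak in every library and 3.76% of its window covered. Lgr5 (chromosome 10, 115450314 to 115587780), a marker of stem cells in other epithelia, had 707, 1009 and 365 bp in WT and 1147, 1266 and 658 bp in cKO, too little for the test.

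The second question was whether the cover of any of the 40 genes differed between WT and cKO. Each gene with a mean scaled cover of at least 1000 bp was tested with limma on log2(scaled cover + 500 bp), with the batch as covariate and Benjamini-Hochberg adjustment over 15355 genes. This scale understates changes of thinly covered genes. Of the 40 genes 29 could be tested. The 11 under the minimum were Wnt1, Wnt2, Wnt6, Wnt8a, Wnt9a, Wnt16, Fzd6, Fzd10, Rspo1, Rspo4 and Lgr5. At a limma adjusted p below 0.05, none of the 29 was longer in cKO (background 0.371% of all genes tested, 57 genes) and Lgr6 was shorter (background 0.319%, 49 genes). With quantile normalization the split over all genes was 4 longer and 14 shorter, and without scaling 1 and 0. At an unadjusted limma p below 0.05, 3 of the 29 were longer (Wnt3, Fzd1 and Wnt3a, background 5.66%) and 2 shorter (Lgr6 and Wnt2b, background 4.29%). The log2 differences were positive for 17 and negative for 12, with a median of 0.03 beside 0.05 over all genes. Of the 29, no gene but Lgr6 passed.

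**Figure D3:**
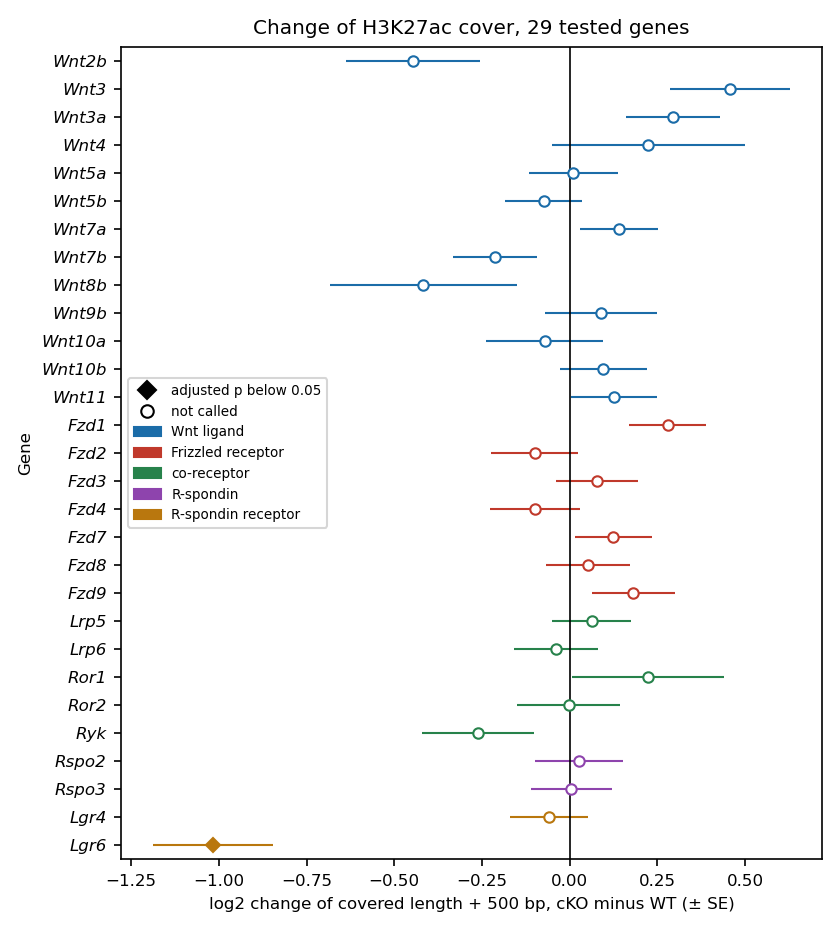
Difference of log2(scaled cover + 500 bp), cKO minus WT, for the 29 tested genes, coloured by role, with bars of ± 1 SE. The filled diamond is Lgr6 at -1.02, the single gene with a limma adjusted p below 0.05, and the open circles lie between -0.45 and 0.46.

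Lgr6, a receptor for R-spondins, fell in cKO. The gene spans chromosome 1, 134983300 to 135105374. Its scaled cover was 2402, 4283 and 2362 bp in WT replicates 1, 2 and 3 and 1151, 1144 and 1266 bp in the cKO replicates, so the genotypes did not overlap and WT replicate 2 was the highest. Mean scaled cover was 3016 ± 1098 bp (SD, n = 3) for WT and 1187 ± 68.7 bp (SD, n = 3) for cKO. The log2 difference was -1.02 ± 0.17 (SE, limma adjusted p = 0.0216), with -1.18 in batch A and -0.70 in batch B, which holds 1 library per genotype. Of the cover counted, 92.1% lay in the gene body. A region at chromosome 1, 135089218 to 135090109, 15167 bp from the start, measured 721, 892 and 517 bp before scaling in WT and 314, 0 and 0 bp in cKO. Its peaks were weak, stronger than 10.2% to 41.5% of their lists. A second region at chromosome 1, 135018978 to 135021591, measured 738, 2614 and 0 bp in WT and 0, 175 and 0 bp in cKO. The peaks of that region were stronger than 6.9% to 29.3% of their lists. Another region near the far end of the gene, at 134987451 to 134988177, was present in all 6 libraries. There the peaks were stronger than 45.5% to 74.9% of their lists. The promoter printed above had a peak of 169 bp in WT replicate 1 alone.

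The call at Lgr6 depended on the libraries and the processing. The limma adjusted p was 0.0850 without WT replicate 2 (log2 difference -0.77), 0.151 without WT replicate 3 (-1.18), 0.142 without cKO replicate 3 (-1.18) and 0.146 in batch A alone (-1.18). The call was kept when WT replicate 1 was left out (limma adjusted p = 0.00262, log2 difference -1.18). Leaving out cKO replicate 1 gave 0.000358 (-0.97), and leaving out cKO replicate 2 gave 0.00105 (-0.97). By processing, it was 0.0540 in lists of equal length (-0.83), 0.0503 with 100 bp in place of 500 bp (-1.22), 0.116 without the minimum (-1.02), 0.0930 after quantile normalization (-1.07), 0.701 without scaling (-1.11), 0.0667 after scaling to the sum over gene windows (-1.04), 0.136 over the gene body alone (-0.88) and 0.825 with flanks of 100 kb (-0.06). The summed cover of meningeal markers did not overlap between the genotypes either. The 5 of them (Foxc1, Col1a1, Col1a2, Dcn and Lum) summed to 9191 to 10805 bp in WT and 7314 to 8546 bp in cKO. No background share is given for such a sum, and its genes did not move together. Means were lower in cKO at Col1a1 (5854 bp in WT, 5292 bp in cKO), Col1a2 (1202 and 437 bp) and Dcn (921 and 114 bp). They were higher in cKO at Foxc1 (799 and 1072 bp) and Lum (962 and 1059 bp). Dcn had 801 to 1145 bp in WT and was at 0 in cKO replicates 1 and 3, and neither of the 2 tested (Col1a1 and Lum) passed. The 4 microglial and blood markers summed to 5782 to 8879 bp in WT and 5154 to 5802 bp in cKO, and none of the 4 had a start peak in any library. Among them the microglial marker Cx3cr1 had 1689, 1221 and 724 bp in WT and 0, 270 and 0 bp in cKO, under the minimum for testing. Separation with cKO lower held for 4.55% of all genes tested. The others overlapped between the genotypes. Means in WT and cKO were 1304 and 1002 bp at Csf1r, 2321 and 2145 bp at Ptprc, 2345 and 2335 bp at Hba-a1. All of these were tested and none passed. The part of meningeal, microglial or blood cells in the Lgr6 result was not tested. In a lysate of the whole cortex, fewer acetylated cells and less acetylation per cell cannot be told apart.

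**Figure D4:**
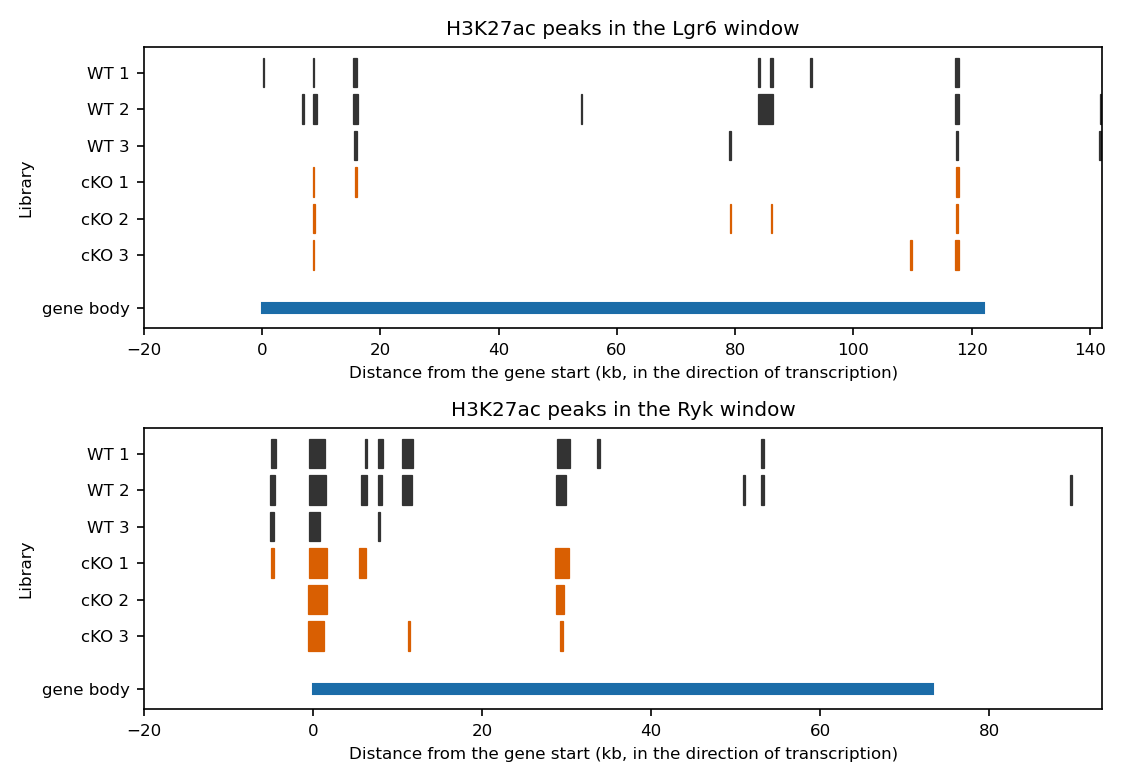
H3K27ac peaks (bars) of the 3 WT and 3 cKO libraries along the windows of Lgr6 (top) and Ryk (bottom), by distance from the gene start in kb, with the gene body below. The Lgr6 region 15167 bp from the start has a peak in 3 WT libraries and 1 cKO library, and the Ryk region 7711 bp from the start has a peak in 3 WT libraries and no cKO library.

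The ligand genes with the smallest p besides were Wnt3, Wnt2b, Wnt3a, Wnt7b and Wnt8b, and none passed the adjustment. Wnt3 (chromosome 11, 103774175 to 103818021), a ligand of the beta-catenin route, had 1212, 1748 and 1676 bp in WT and 3116, 1712 and 2210 bp in cKO. Its log2 difference was 0.46 ± 0.17 (SE, limma adjusted p = 0.352), with cKO replicate 1 above the rest. Without cKO replicate 2 it was called longer (0.64, limma adjusted p = 0.0275). Wnt2b had a log2 difference of -0.45 ± 0.19 (SE, limma adjusted p = 0.445), with -0.62 in batch A and -0.11 in batch B. Without WT replicate 2 it was -0.15. Wnt3a had a log2 difference of 0.30 ± 0.13 (SE, limma adjusted p = 0.485). Wnt8b had -0.42 ± 0.27 (SE, limma adjusted p = 0.670), where the spread within each genotype exceeded the difference. Without cKO replicate 1, its highest library, Wnt8b was called shorter (-0.82, limma adjusted p = 0.00328). For these hem-associated ligands the difference over the window had opposite signs at Wnt3a and at Wnt2b. At both genes most of the cover lay outside the gene body.

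At Wnt7b all 3 cKO libraries lay below all 3 WT libraries, by a margin of 11188 against 11197 bp between the nearest. Such separation with cKO lower held for 4.55% of all genes tested, and for 2 of the 29 here (Wnt7b and Lgr6). Separation with cKO higher held for none of the 29, beside 7.07% of all genes. The log2 difference at Wnt7b was -0.21 ± 0.12 (SE, limma adjusted p = 0.606), with -0.31 in batch A and -0.01 in batch B, and it turned to 0.08 in lists of equal length. The regions at chromosome 15, 85542306 to 85543547 and 85599140 to 85599925, had peaks in WT replicates 1 and 2 and in no other library, stronger than 3.7% to 13.4% of their lists. The peak at the gene end, 6721 to 8193 bp long before scaling, was in all 6. Wnt8a, under the minimum for testing, was the converse case and is named after its values were seen. Its single peak, 12803 bp from the gene, measured 816, 849 and 759 bp in WT and 910, 936 and 862 bp in cKO after scaling.

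Among the Frizzleds, Fzd1 (chromosome 5, 4753839 to 4758216) had the smallest p. Its scaled cover was 5013, 4892 and 6428 bp in WT and 6384, 6448 and 7192 bp in cKO, with the highest WT library inside the range of cKO. The log2 difference was 0.28 ± 0.11 (SE, limma adjusted p = 0.383). The promoter of Fzd1 shown above lies in the same merged region as the gene, 5873 bp long at chromosome 5, 4753279 to 4759151, present in all 6 libraries. The genes with the longest cover gave limma adjusted p-values of 0.678 (Fzd9), 0.747 (Wnt7a), 0.871 (Wnt5b), 0.888 (Lrp5), 0.933 (Lrp6) and 0.995 (Ror2). Their log2 differences were 0.18 ± 0.12 at Fzd9, 0.14 ± 0.11 at Wnt7a, -0.07 ± 0.11 at Wnt5b, 0.06 ± 0.11 at Lrp5, -0.04 ± 0.12 at Lrp6 and -0.00285 ± 0.15 at Ror2 (SE). A Frizzled gene outside the 40, Fzd5, had 3633, 3270 and 3637 bp in WT and 225, 1043 and 443 bp in cKO, a log2 difference of -1.98 ± 0.21 (SE, limma adjusted p = 0.000862).

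Single regions were then compared. Merging the peaks of all lists gave 207 regions touching the 40 windows, of which 76 (36.7%) were in all 6 libraries, beside 46.4% of 85924 regions genome-wide. A further 52 (25.1%, beside 21.2%) came from 1 library, and 32 of those from WT replicate 2, the longest list. A single region (0.483%) had a peak in all 3 WT libraries and none in cKO, where 0.907% of all regions did. No region had the converse pattern, which 0.347% of all regions showed. The WT-only region lies inside Ryk (gene at chromosome 9, 102834920 to 102908307), which encodes a Wnt receptor with an inactive kinase domain. It sits at chromosome 9, 102842631 to 102843147, 7711 bp from the start, and measured 499, 416 and 170 bp in WT before scaling. Its peaks were weak, stronger than 5.2% to 29.5% of their lists. It was not WT-only past a -log10 q of 5, where the single such region lay in Lrp5. It was not WT-only in equal-length lists either. The 3 such regions there (2.098%, beside 0.908% of all regions) lay in Lgr6, in Ror2 and elsewhere in the Ryk window. The count of such regions depended on single libraries. Without WT replicate 3, the shortest list, 13 regions (6.28%) had peaks in both other WT libraries and none in cKO, beside 5.24% of all regions. The count was 6 without cKO replicate 1 (2.87%, beside 1.54% of all regions). It was 2 without WT replicate 1 (1.02%, beside 1.28%), cKO replicate 2 (0.980%, beside 1.40%) or cKO replicate 3 (0.980%, beside 1.20%). The converse count was 2 without WT replicate 2 (1.10%, beside 1.31%) or cKO replicate 3 (0.980%, beside 0.762%). Without cKO replicate 2 it was 1 (0.490%, beside 0.574%).

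Across the whole Ryk window scaled cover was 5937, 5431 and 2520 bp in WT and 4973, 3220 and 2780 bp in cKO. The genotypes overlapped, and WT replicate 3 was the lowest of all. The log2 difference was -0.26 ± 0.16 (SE, limma adjusted p = 0.653), with -0.45 in batch A and 0.12 in batch B. Without cKO replicate 2 it was -0.0488, and without WT replicate 3 or cKO replicate 3 it was -0.45. The peak over the Ryk start, 1280 to 2246 bp before scaling, was in all 6 libraries. With 3 libraries against 3, an exact test of a single region could not go below p = 0.1.

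Promoter base composition was set beside the start peaks as a description. The 27 genes with a listed start had 30 promoters of 300 bases (250 before the start and 50 after). The 12 with a peak within 1 kb in all 6 libraries held a median of 28 CpG, and so did the 12 with a peak in none. Over the 21262 promoters of all genes in the table the medians were 22 and 3. Wnt9a (58 CpG), Wnt4 (51) and Wnt3a (45) were CpG-dense without a peak within 1 kb, as the printed Wnt3a sequence shows. The region nearest to the Wnt9a start lay 1001 bp away, with a peak in 2 WT and 3 cKO libraries. A Wnt5b promoter (7), Ror1 (10) and Fzd1 (16) had a peak within 1 kb in all 6 libraries with fewer CpG than the median of 22. At Ror1 the peak lay over the start itself in 1 library. The letters CTTTGAA or CTTTGAT, a core to which TCF and LEF factors bind, were searched on both strands. They occurred in 2 of the 30 promoters (6.67%, Wnt5b and Wnt11), beside 7.57% of all promoters. A match is a description of letters and no evidence of binding.

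The intracellular and regulatory genes of the pathway were read from the same fit. Of 36 such genes, from Porcn and Wls (ligand secretion) through the Dishevelleds, the destruction complex and the TCF/LEF factors to common targets, 35 were tested, and 0 passed limma's adjusted threshold in either direction. At an unadjusted limma p below 0.05, 1 was longer (background 5.66%) and 2 were shorter (background 4.29%). Their median log2 difference was 0.06, with 21 positive and 14 negative. Start peaks were present in all 6 libraries at 33 of the 36, beside 20 of the 40 extracellular genes and 58.0% of all genes. The smallest p belonged to Tcf7, a nuclear partner of beta-catenin, with 4090, 4320 and 3923 bp in WT and 2930, 3165 and 2690 bp in cKO. The genotypes did not overlap there or at Bcl9 and Celsr1 (cKO lower, background 4.55%), nor at Znrf3, Csnk1a1 and Pygo2 (cKO higher, background 7.07%). The log2 difference at Tcf7 was -0.43 ± 0.11 (SE, limma adjusted p = 0.112). Znrf3, the ligase that clears Frizzleds, had 0.36 ± 0.11 (SE, limma adjusted p = 0.246), and Ctnnb1, which encodes beta-catenin, had -0.32 ± 0.13 (SE, limma adjusted p = 0.42). Neither passed, so the cover of these genes was not shown to differ by genotype.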

How the data were processed

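H3K27ac ChIP-seq libraries of mouse cortex (3 WT, 3 cKO) were analysed from 1 broad peak list each; the 6 input libraries were not analysed here. Per the labels' protocols, chromatin was cut with micrococcal nuclease without crosslinking. The submitters' processing notes name the mm10 build, MACS2 2.1.1, Bowtie2 2.2.8, cutadapt and FastQC. Settings and any use of the inputs as control were not stated there. Columns the authors deposited per peak are a score and a fold enrichment ratio, both unused, and -log10 p and q values, which served to order or select peaks inside each list. The lowest deposited -log10 q was 1.31 to 1.39. Depth is unknown.

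Bases under peaks were counted in gene body plus 20 kb (RefSeq GRCm38.p6; exons not given there), scaled to the mean list total, and tested as log2(bp + 500) with limma 3.58.1 (lmFit, eBayes, batch covariate, mean of at least 1000 bp; Benjamini-Hochberg). Cover does not record peak height. Python 3.11.15 and R 4.3.3 were used, and scripts were tested on simulated data. Regions were merged at an overlap of 1 bp. Start sites came from the promoter table for 27 genes.

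The members and lists were chosen with earlier results of these data known. A cortical marker on the lists is not reported here. Values in every library are given for the 8 tested genes with the smallest p, the 6 with the longest cover, those with a genotype-only region, and Wnt2b, Wnt3a, Wnt8b, Wnt7b, Rspo1, Rspo2, Rspo3, Fzd8 and Lgr5. Of the other pathway genes the 3 with the smallest p are named. Alternatives were a pseudocount of 100 or 2000 bp, no minimum, no scaling, quantile normalization, peaks past a -log10 q of 5, equal-length lists, leaving out each library, a fit with no batch term or with the replicate block, other windows and start definitions, at least 50% cover of a region and merging across 1 kb. Batch A alone and scaling to the sum over gene windows were chosen after seeing the data.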

Additional observations from a re-analysis of the deposited data

How the results depend on the processing

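The count of genes shorter in cKO (1, Lgr6) became 0 for peaks past a -log10 q of 5, in equal-length lists, a pseudocount of 100 bp, no minimum, no scaling, quantile normalization, the gene body alone, 2 kb around the start, flanks of 100 kb, batch A alone and scaling to the sum over gene windows. It stayed at 1 without the batch covariate and with 2000 bp. Leaving out single libraries gave 0 to 2 shorter and 0 to 1 longer: without cKO replicate 1 Wnt8b was also called (log2 difference -0.82, limma adjusted p = 0.00328), and without cKO replicate 2 Wnt3 was called longer (0.64, limma adjusted p = 0.0275). The Lgr6 difference stayed negative in every setting in which it was tested; past a -log10 q of 5 and with 2 kb around the start it was under the minimum. The causes of these shifts were not tested.

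With the replicate number as a block, 0 genes were longer and 1 shorter (Lgr6, limma adjusted p = 0.00147), and 85 and 83 over all genes. In their deviations from the genotype means, same-numbered WT and cKO libraries correlated at 0.132, 0.063 and 0.261. Differently numbered ones correlated at -0.225 to 0.167. Such values cannot decide whether the numbers pair the samples, and the labels do not say.

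The count of WT-only regions (1) was 3 in equal-length lists (2.098%, beside 0.908% of all regions) and 15 in batch A alone (7.35%, beside 6.43%). It was 1 to 13 with a library left out, with 13 without WT replicate 3 (6.28%, beside 5.24%). The cKO-only count (0) stayed at 0 in equal-length lists, beside 0.987% of all regions. It was 1 with at least 50% cover (0.483%, beside 0.484% of all regions). It was 2 in batch A alone (0.980%, beside 0.787%) and 0 to 2 with a library left out. The count of start peaks in all libraries (20) ranged from 16 to 22.

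Signs turned at Wnt2b (0.0303), Wnt8b (0.0253) and Fzd1 (-0.0303) with flanks of 100 kb. At Wnt7b they turned among peaks past a -log10 q of 5 (0.0646) and in equal-length lists (0.0841), and at Wnt5b with 2 kb around the start (0.28). At Lrp5 they turned past a -log10 q of 5 (-0.58) and without scaling (-0.0450), with -0.00336 to 0.113 over left-out libraries. At Lrp6 they turned in equal-length lists (0.0132), with -0.122 to 0.0650 over left-out libraries. At Ror2 they turned in equal-length lists (0.0441), with 2 kb around the start (0.15) and with flanks of 100 kb (0.0347), with -0.22 to 0.15 over left-out libraries. At Ryk they turned past a -log10 q of 5 (0.18) and with 2 kb around the start (0.30). None of these passed limma's threshold.

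Over all genes the calls (57 longer, 49 shorter) were 20 and 18 past a -log10 q of 5, 36 and 22 in equal-length lists, 21 and 18 without the batch covariate, 19 and 20 with 100 bp, 108 and 100 with 2000 bp, 7 and 16 without the minimum, 1 and 0 without scaling, 4 and 14 after quantile normalization, 22 and 20 over the gene body, 77 and 74 with flanks of 100 kb, 1 and 2 in batch A alone and 19 and 23 after scaling to gene windows. With a library left out the longer count ran from 1 to 131 and, taken separately, the shorter count from 0 to 106. Unknown read depth limits every absence of a peak to these lists.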
